A study of Mus musculus with 6 samples.

Results

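Genes of the citric acid cycle and of the routes by which pyruvate and glutamine reach it were examined in mouse macrophages given interferon-gamma (IFN-γ). The 39 genes were taken by symbol from the tables of each library, and all 39 were among the 36706 entries listed. They encode 34 mitochondrial and 5 cytosolic proteins. Of the 39, 38 passed the filter on low counts and entered the test over 12968 genes. The exception was Pdk4, a pyruvate dehydrogenase kinase gene, with 1, 0 and 1 counts in IFN-γ libraries and 0, 1 and 0 counts in untreated libraries, below a floor of 3 counts per library.

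The study profiled bone marrow-derived macrophages, cells grown from mouse marrow with the growth factor M-CSF, and its stated aim was the mechanism by which IFN-γ induces ACOD1, the enzyme that draws cis-aconitate out of the cycle to make itaconate. There were 3 libraries of wild-type (WT) macrophages given IFN-γ for 3 h and 3 libraries of untreated WT macrophages sampled at the same 3 h. All cells of both groups were cultured with 20 ng/mL M-CSF, 10% serum and 1% antibiotics. Nothing in the labels ties the replicates to different mice or dishes. The p-values thus cover the spread among the 6 libraries alone, and that spread may be technical.

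In the cycle, citrate synthase joins acetyl groups to oxaloacetate, and a chain of mitochondrial dehydrogenases then returns citrate to oxaloacetate while reducing NAD and ubiquinone. Pyruvate enters through the mitochondrial pyruvate carrier and the pyruvate dehydrogenase complex, which kinases switch off and phosphatases switch on. Glutamine carbon enters as glutamate and 2-oxoglutarate. Several steps also have a cytosolic isoenzyme, and macrophages are known to reroute cycle intermediates such as citrate, itaconate and succinate when they are activated.

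Total counts ran from 32628170 to 34233607 in the IFN-γ libraries and from 28133342 to 31173432 in the untreated libraries. Acod1 and Irf1, genes that report IFN-γ exposure, were both higher in IFN-γ libraries, with log2 fold changes of 5.92 ± 0.07 and 4.83 ± 0.06 (SE, n = 3 each). The 8 macrophage markers summed to between 20247 and 21525 CPM (counts per library size, scaled by TMM) in IFN-γ libraries and between 19494 and 21125 CPM in untreated libraries. Markers of other cell types summed to less. The 7 neutrophil markers were at 118 to 131 CPM with IFN-γ and 69.7 to 92.5 CPM untreated, with none at 0 in all libraries, and their part in the results was not tested. The 3 dendritic cell markers were at 1.69 to 1.86 CPM with IFN-γ and 0.744 to 1.23 CPM untreated. T or NK cell, B cell, mast cell or basophil, stromal and erythroid markers stayed below 1 CPM in sum, with Cd3e and Fcer1a at 0 counts. Untreated replicate 2 stood apart by its dependence on exon length, with a slope of -0.0925 log2 units per doubling of length, where the other 5 libraries lay between -0.0246 and 0.0669. By chi-square over degrees of freedom between libraries, untreated replicate 1 differed the most. It was at 80.2 against replicate 2 and 52.6 against replicate 3, where replicates 2 and 3 were at 27.2.

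Upstream sequences are shown for Idh1, whose level changed the most of the 39 genes, and for the 3 other called genes whose window held a motif that was searched. Each is the 250 bases before a RefSeq start site, read 5′ to 3′ on the gene's own strand, from RefSeq on build GRCm38.p6, with motif matches in capitals. The Idh1 windows, before each of its 2 start sites, are chr1:65186480-65186729 and chr1:65179143-65179392 (minus strand). The others are chr7:141435376-141435625 for Slc25a22 (minus strand), chr17:8284204-8284453 for Mpc1 (plus strand) and chr12:85110583-85110832 for Dlst (plus strand).
Idh1, first window: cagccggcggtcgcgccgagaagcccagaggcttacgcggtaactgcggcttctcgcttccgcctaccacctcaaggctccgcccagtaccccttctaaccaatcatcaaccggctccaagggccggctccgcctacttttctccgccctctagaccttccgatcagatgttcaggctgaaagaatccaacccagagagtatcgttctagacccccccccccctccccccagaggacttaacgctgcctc
Idh1, second window: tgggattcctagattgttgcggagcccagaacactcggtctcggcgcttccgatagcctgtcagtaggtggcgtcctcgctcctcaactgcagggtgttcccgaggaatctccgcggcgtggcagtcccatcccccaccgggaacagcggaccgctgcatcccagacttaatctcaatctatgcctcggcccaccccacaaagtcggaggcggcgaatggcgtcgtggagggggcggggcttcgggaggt
Slc25a22: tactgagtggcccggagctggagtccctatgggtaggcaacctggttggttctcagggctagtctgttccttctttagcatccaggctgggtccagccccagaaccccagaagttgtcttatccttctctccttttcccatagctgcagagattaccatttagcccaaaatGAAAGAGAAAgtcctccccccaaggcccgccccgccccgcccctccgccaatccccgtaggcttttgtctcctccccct
Mpc1: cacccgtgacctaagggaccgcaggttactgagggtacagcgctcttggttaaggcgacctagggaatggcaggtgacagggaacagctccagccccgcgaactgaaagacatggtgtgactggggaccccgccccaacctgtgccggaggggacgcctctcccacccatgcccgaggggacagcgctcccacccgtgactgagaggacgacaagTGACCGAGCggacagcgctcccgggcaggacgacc
Dlst: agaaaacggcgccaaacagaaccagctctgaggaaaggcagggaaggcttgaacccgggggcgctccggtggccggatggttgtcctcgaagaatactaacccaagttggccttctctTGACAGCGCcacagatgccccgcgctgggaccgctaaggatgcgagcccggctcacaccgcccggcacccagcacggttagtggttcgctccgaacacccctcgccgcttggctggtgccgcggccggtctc

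The motifs, searched on both strands, were TTCNNNGAA (the interferon-gamma-activated site), the core of the interferon-stimulated response element (a pair of GAAA runs with any 2 bases between them) and TGACNNNGC (the core of the antioxidant response element). Of the 39 genes, 35 were matched to RefSeq windows. TTCNNNGAA occurred in a window of 0 of these 35 genes, where 8.13% of 27025 genes with windows held it. The interferon-stimulated response element core occurred in 1 of 35, Slc25a22, starting 79 bases before the start site, against 3.46% of all genes. TGACNNNGC occurred in 4 of 35 (Mpc1, Idh3g, Dlst and Sucla2), against 11.5% of all genes. A match describes the letters in these windows and is not evidence of binding.

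Of the 38 genes tested, 7 were higher and 5 were lower in IFN-γ macrophages (edgeR's quasi-likelihood test, adjusted p under 0.05 over all 12968 genes). That is 31.6% called, near the 36.4% called among all genes tested, of which 19.6% were higher and 16.8% lower. Without untreated replicate 2, which stood apart in its slope on exon length, 8 were higher and 5 lower, where 24.0% of all genes were higher and 21.1% lower. Without untreated replicate 1 there were 5 higher and 4 lower (2432 and 1915 of 13143 genes). Without IFN-γ replicate 1 there were 4 higher and 4 lower (15.5% and 13.3% of all genes), and without IFN-γ replicate 2 there were 4 higher and 3 lower (15.2% and 11.0% of all genes). With total counts in place of TMM, 3 were higher and 14 lower, and the calls over all genes moved the same way, to 12.8% higher and 34.9% lower. With upper quartile scaling 4 were higher and 9 lower (13.9% and 31.6% of all genes), and with the trend on exon length removed 10 were higher and 5 lower (25.8% and 20.2% of all genes). Changes were small: the median absolute log2 fold change was 0.092, where it was 0.219 over all genes tested. The 2 medians were not matched for level. A filter of 5 CPM in 3 samples kept 36 of the 38 genes, but 9712 of the 12968. The 26 genes not called lay between -0.16 and 0.22. In simulated counts with 50 genes changed by each fold, at any level, the test recovered 28% of 1.3-fold and 74% of 1.5-fold changes. The simulation gave 154 calls where the data gave 4715, so these shares may not hold for the genes examined here. A gene not called is not shown to be unchanged. In 16 of the 38, CPM did not overlap between the groups, against 50.1% of all genes tested. These are bulk libraries, in which fewer cells carrying a transcript and less of it per cell cannot be told apart.

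**Figure D1:**
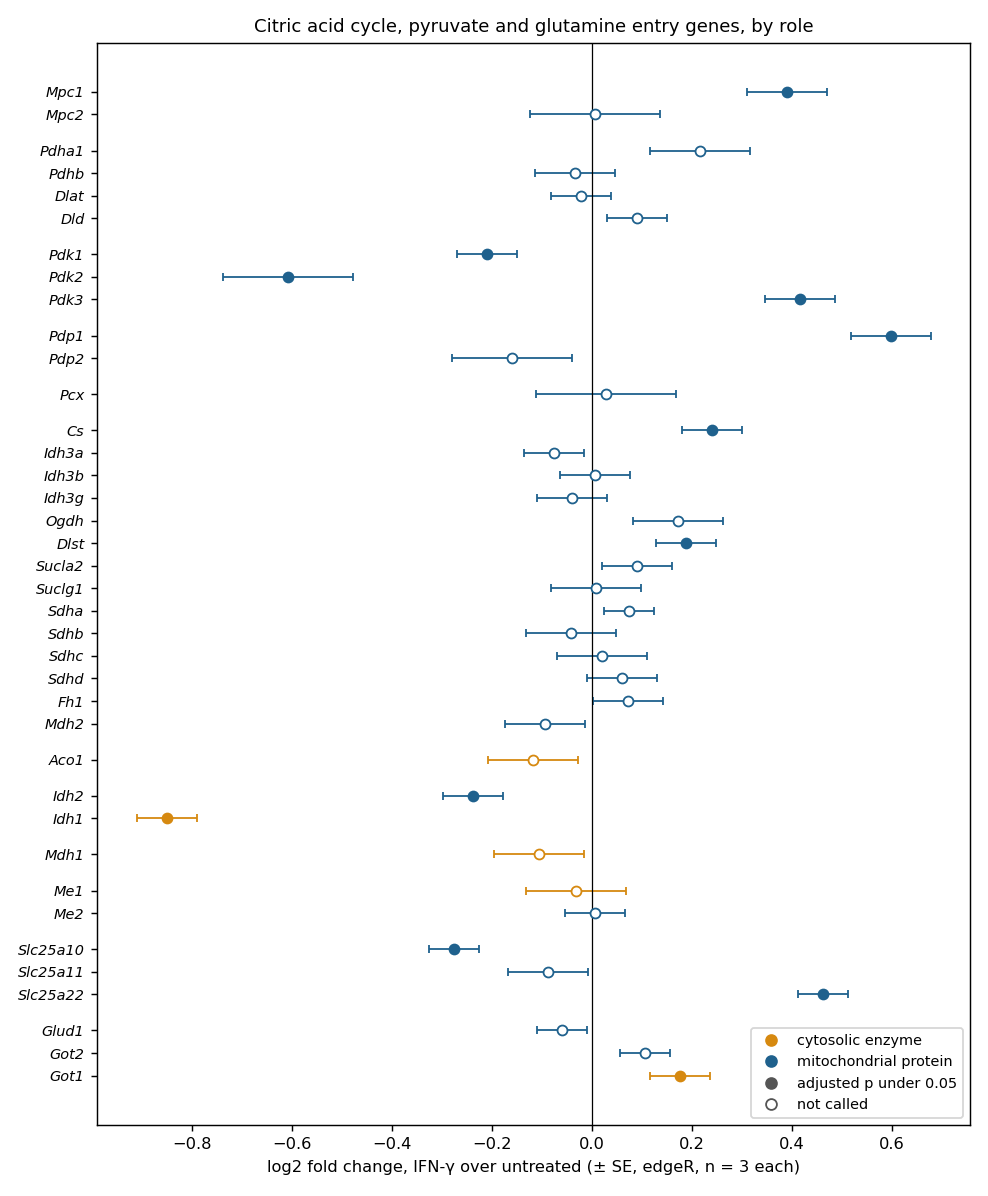
Log2 fold change of IFN-γ over untreated macrophages (x axis, ± SE, n = 3 libraries each) for the 38 genes tested, arranged by role down the page; orange marks cytosolic enzymes, blue mitochondrial proteins, and filled points an adjusted p under 0.05. Idh1, at -0.85, lies farthest to the left and Pdp1, at 0.60, farthest to the right, while most enzymes of the mitochondrial cycle lie close to 0.

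Idh1 had the largest fall of the set. It encodes the cytosolic isocitrate dehydrogenase, which turns isocitrate into 2-oxoglutarate and makes NADPH. It had 92.7, 98.2 and 102 CPM in IFN-γ libraries, against 176, 179 and 173 CPM in untreated libraries, so the groups stood far apart. The log2 fold change was -0.85 ± 0.06 (SE), a change of -44.5% (adjusted p = 9.96e-06, edgeR). Its place in the order of transcript level per length moved to the 18th of 39 in IFN-γ macrophages, against the 8th in untreated macrophages. The fall was called under all 16 alternatives, with log2 fold changes between -1.02 and -0.82.

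Idh2, the mitochondrial NADP-dependent counterpart of Idh1, also fell. It had 69.5, 66.4 and 70.3 CPM with IFN-γ, against 78.5, 85.2 and 79.5 CPM untreated, and the groups did not overlap. The log2 fold change was -0.24 ± 0.06 (adjusted p = 0.0131, edgeR). Without IFN-γ replicate 2 it was -0.21 with an adjusted p of 0.0789. Of its exon bases, 15.4% overlap LOC118567518 on the other strand, which averaged 0.2 counts against 2339.3 for Idh2. Idh1 and Idh2 share no stretch of 50 bases.

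The NAD-dependent isocitrate dehydrogenase is the mitochondrial enzyme of the cycle proper. None of its 3 subunit genes was called: Idh3a, the catalytic subunit gene, was at -0.08 ± 0.06, Idh3b at 0.01 ± 0.07 and Idh3g at -0.04 ± 0.07 on the log2 scale. Their CPM overlapped between the groups. At an unadjusted p under 0.05 the count was also 0, as it was with DESeq2 and limma-voom. Idh3a was called lower with upper quartile scaling (-0.22, adjusted p = 0.0181) and with total counts (-0.25, adjusted p = 0.00659), and Idh3g with total counts (-0.21, adjusted p = 0.0224).

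**Figure D2:**
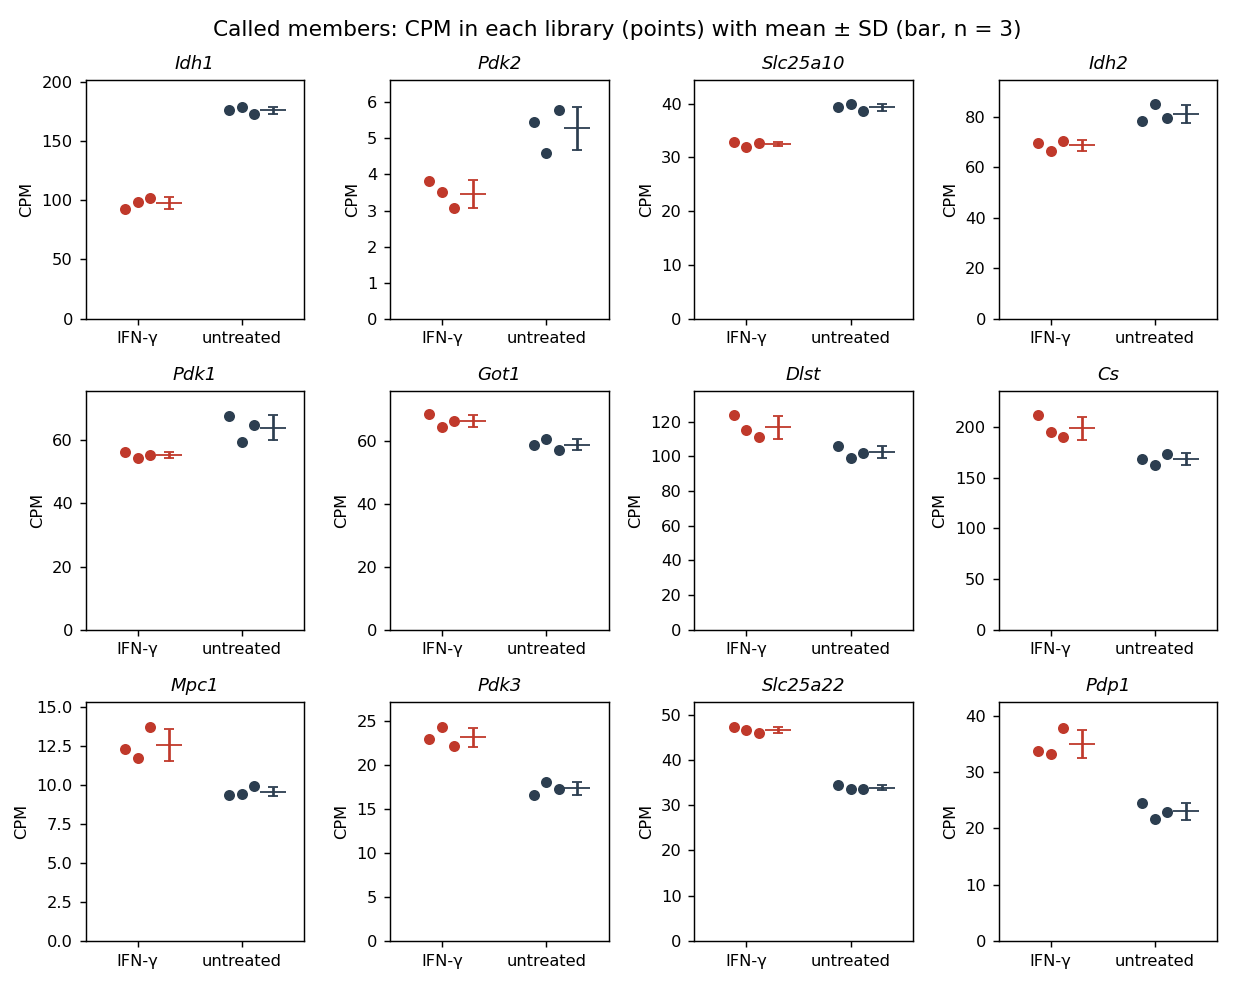
CPM (y axis, from 0) in each IFN-γ library (left) and each untreated library (right) for the 12 called genes, ordered from the largest fall to the largest rise; points are libraries and bars are mean ± SD, n = 3. In every panel the 3 IFN-γ points lie on one side of the 3 untreated points, and the gap is widest in proportion for Idh1.

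Cytosolic and mitochondrial isoenzymes were compared within each library as a ratio of counts, which does not depend on library scaling. Both genes of 4 pairs lay within the set, and p-values were adjusted over the 5 pairs computed. With 3 libraries against 3, an exact permutation test cannot give a p below 0.1, so no pair could pass a threshold of 0.05.

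The ratio of Idh1 to Idh2 lay lower in all 3 IFN-γ libraries. Per length, Idh1 was 3.04, 3.37 and 3.31 times the TPM of Idh2, a level per transcript length, in IFN-γ libraries, against 5.10, 4.78 and 4.97 times in untreated libraries. The groups did not overlap. On the log2 scale of counts the ratio averaged 0.51 ± 0.08 with IFN-γ and 1.12 ± 0.05 untreated (SD, n = 3 each), a difference of -0.61 ± 0.05 (SE). The two-sided exact permutation p was 0.1, the smallest possible, and 0.25 adjusted over 5 pairs. Between the 2 genes, the larger share of NADP-dependent isocitrate dehydrogenase transcript was that of Idh1, at 76.4% ± 0.994 of summed TPM with IFN-γ and 83.2% ± 0.463 untreated (SD, n = 3 each). The size of the TPM ratio and of these shares depends on the exon lengths used, 2438 bases for Idh1 and 5556 for Idh2.

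Aco1 encodes the cytosolic aconitase, which also serves as iron regulatory protein 1. It was at -0.12 ± 0.09 on the log2 scale and was not called (adjusted p = 0.363, edgeR). It had 59.6, 48.9 and 48.2 CPM with IFN-γ, against 58.4, 53.0 and 58.9 CPM untreated. Aco1 averaged 52.2 ± 6.41 CPM with IFN-γ and 56.8 ± 3.25 CPM untreated, and the groups overlapped. It was called lower with upper quartile scaling and with total counts.

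The malate dehydrogenases, which interconvert malate and oxaloacetate on either side of the mitochondrial membrane, had overlapping ratios. Mdh1, the cytosolic gene, stood to Mdh2, the mitochondrial gene, at 0.713, 0.739 and 0.745 in TPM with IFN-γ, against 0.731, 0.746 and 0.739 untreated. The log2 difference of -0.01 ± 0.02 (SE) had an exact permutation p of 0.7. Mdh1 averaged 204 ± 15.4 CPM with IFN-γ and 219 ± 23.0 CPM untreated, and Mdh2 182 ± 9.71 and 194 ± 18.5 CPM (SD, n = 3 each). Neither was called, but Mdh1 was called lower with total counts and Mdh2 with total counts and upper quartile scaling.

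Got1 and Got2, the cytosolic and mitochondrial aspartate aminotransferases of the malate-aspartate shuttle, also overlapped in their ratio. It was 0.287, 0.261 and 0.282 in TPM with IFN-γ, against 0.264, 0.273 and 0.252 untreated, a log2 difference of 0.07 ± 0.05 (SE; exact permutation p = 0.3). The malic enzyme genes Me1 (cytosolic, NADPH-forming) and Me2 (mitochondrial) stood at ratios of 0.847, 0.964 and 1.14 with IFN-γ, against 1.00, 1.04 and 0.981 untreated. Their log2 difference was -0.04 ± 0.13 (SE; exact permutation p = 0.7), and the IFN-γ libraries spread on both sides of the untreated ones. Got2 and Me1 share 25.6% and 28.3% of their 50-base stretches with other genes, so both ratios carry that uncertainty.

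**Figure D3:**
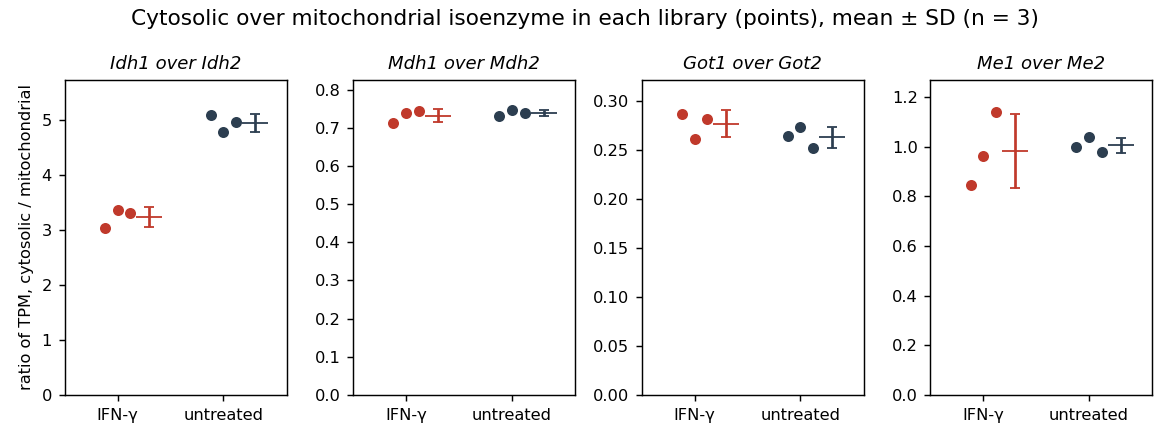
Ratio of TPM of the cytosolic to the mitochondrial isoenzyme gene (y axis, from 0) in each IFN-γ library (left) and untreated library (right) for 4 pairs; points are libraries, bars mean ± SD, n = 3. The groups separate for Idh1 over Idh2 and overlap for the other 3 pairs.

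Taken one gene at a time, 1 of the 5 cytosolic genes was lower (Idh1) and 1 was higher (Got1), while 6 of 33 mitochondrial genes tested were higher and 4 lower. That is 40% of the cytosolic and 30.3% of the mitochondrial genes called, where 36.4% of all genes tested were called. The median log2 fold change was -0.106 over the cytosolic genes and 0.007 over the mitochondrial genes, and the median over all genes tested was -0.014. Without untreated replicate 2 the medians were -0.03 and 0.07, and with total counts -0.27 and -0.16. The cytosolic median was -0.06 without IFN-γ replicate 1 and -0.07 without IFN-γ replicate 2, and the mitochondrial median was -0.03 without untreated replicate 1 and -0.02 without untreated replicate 3. Got1 had 68.6, 64.6 and 66.4 CPM with IFN-γ, against 58.8, 60.9 and 57.2 CPM untreated, with no overlap. Its log2 fold change was 0.18 ± 0.06 (adjusted p = 0.0392, edgeR). The call was held in 5 of 16 alternatives: the log2 fold change was 0.01 with total counts and 0.03 with upper quartile scaling. Leaving out any single IFN-γ library, or untreated library 1 or 3, also ended the call, at 0.14 to 0.20.

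Among the genes of pyruvate entry, those called encode a carrier subunit, 3 kinases and a phosphatase, and no subunit of the pyruvate dehydrogenase complex passed the test. Mpc1, a subunit gene of the mitochondrial pyruvate carrier, had 12.3, 11.7 and 13.7 CPM with IFN-γ, against 9.37, 9.41 and 9.93 CPM untreated, with no overlap. It rose by 0.39 ± 0.08 on the log2 scale (adjusted p = 0.00792, edgeR), and was at 0.22 with an adjusted p of 0.0731 under total counts. Of its exon bases, 11.3% overlap 4930506C21Rik on the other strand, which averaged 8.7 counts against 346.2 for Mpc1. Its partner Mpc2 was at 0.01 ± 0.13, with 48.9 ± 4.04 CPM with IFN-γ and 48.7 ± 8.83 CPM untreated. Per length, Mpc1 was at 15.1 ± 1.17 TPM with IFN-γ and 12.6 ± 1.18 TPM untreated, and Mpc2 at 121 ± 6.31 and 131 ± 13.5 TPM.

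The pyruvate dehydrogenase complex makes acetyl-CoA from pyruvate. None of its 4 genes was called: Pdha1 and Pdhb, the subunits of the first enzyme, were at 0.22 ± 0.10 and -0.04 ± 0.08 on the log2 scale. Dlat, the acetyltransferase, was at -0.02 ± 0.06 and Dld, the dihydrolipoamide dehydrogenase shared with other complexes, at 0.09 ± 0.06. The count was also 0 at an unadjusted p under 0.05, with DESeq2 and with limma-voom. Pdhb (-0.20, adjusted p = 0.0438) and Dlat (-0.19, adjusted p = 0.0274) were called lower with total counts, and Dld was called higher with the trend on exon length removed (0.12, adjusted p = 0.0368). Per length, Dld was at 134 ± 3.14 TPM with IFN-γ and 137 ± 4.53 TPM untreated, and Pdhb at 113 ± 1.66 and 125 ± 3.26 TPM. Pdha1 did not overlap between groups, with 75.6 to 78.9 CPM in IFN-γ libraries and 55.2 to 72.4 CPM in untreated libraries, of which replicate 2 was the low one. Its exons overlap Map3k15 on the other strand over 20.9% of their length, with 2239.2 counts on average for Pdha1 and 116.8 for Map3k15.

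All 3 kinase genes that could be tested were called, in differing directions, where 36.4% of all genes tested were called. These kinases phosphorylate the complex and inactivate it. Pdk2 had 3.82, 3.52 and 3.06 CPM with IFN-γ, against 5.45, 4.6 and 5.78 CPM untreated. It fell by 0.61 ± 0.13 on the log2 scale (adjusted p = 0.00673, edgeR). Pdk3 had 22.9, 24.3 and 22.2 CPM with IFN-γ, against 16.6, 18.1 and 17.3 CPM untreated. It rose by 0.42 ± 0.07 (adjusted p = 0.00221). The groups overlapped for neither gene.

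Pdk1 had 56.3, 54.4 and 55.2 CPM with IFN-γ, against 67.6, 59.6 and 64.9 CPM untreated, again without overlap. It fell by 0.21 ± 0.06 on the log2 scale (adjusted p = 0.031, edgeR). Leaving out any single IFN-γ library (-0.24 to -0.20), or untreated library 1 (-0.17) or 3 (-0.21), ended the call. Of the summed kinase TPM, Pdk1 made up 71.4% ± 1.25 with IFN-γ and 73.2% ± 0.928 untreated. The share of Pdk3 was 17.2% ± 0.783 with IFN-γ and 11.5% ± 1.14 untreated, and that of Pdk2 11.4% ± 1.01 and 15.3% ± 1.06 (SD, n = 3 each). These shares depend on the exon lengths behind TPM, 11504 bases for Pdk3 and 2603 for Pdk2. By CPM, Pdk3 lay above Pdk2 in both groups, at 23.1 and 3.47 with IFN-γ and 17.3 and 5.28 untreated.

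Pdp1, the gene of a phosphatase that reactivates the complex, had the largest rise of the set. It had 33.8, 33.2 and 37.8 CPM with IFN-γ, against 24.6, 21.6 and 23.0 CPM untreated, and the groups lay well apart. The log2 fold change was 0.60 ± 0.08, a change of 51.3% (adjusted p = 0.000589, edgeR), and it stayed called in all 16 alternatives. Pdp2, its paralogue, was at -0.16 ± 0.12 with overlapping groups, at 12.4 ± 1.78 CPM with IFN-γ and 13.8 ± 1.48 CPM untreated. Of the summed phosphatase TPM, Pdp1 made up 75.4%, 79.9% and 80.6% in IFN-γ libraries, against 68.3%, 69.9% and 67.5% in untreated libraries. The summed TPM of the 4 kinases was 1.17, 1.23 and 1.07 times that of both phosphatases with IFN-γ, against 1.68, 1.75 and 1.74 times untreated. These are ratios of transcripts that depend on the exon lengths behind TPM, and the phosphorylation of the complex was not measured. They were not among the planned results and were not tested. Most of the kinase sum was Pdk1, at 71.4% with IFN-γ and 73.2% untreated. Pcx, pyruvate carboxylase, which makes oxaloacetate from pyruvate, was at 1.41 ± 0.279 TPM with IFN-γ and 1.5 ± 0.162 TPM untreated and was not called.

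The 14 mitochondrial enzymes of the cycle itself lay between -0.09 and 0.24 on the log2 scale: 2 were higher and 0 were lower, or 14.3% called, against 36.4% of all genes tested. At an unadjusted p under 0.05, and with DESeq2 and limma-voom, the counts were likewise 2 higher and 0 lower. The 2 higher genes were at the entry and at the 2-oxoglutarate step. Cs, citrate synthase, had 212, 195 and 190.0 CPM with IFN-γ, against 169, 163 and 174 CPM untreated, with no overlap. Its log2 fold change was 0.24 ± 0.06 (adjusted p = 0.0169, edgeR). Dlst, the succinyltransferase of the 2-oxoglutarate dehydrogenase complex, had 124, 115 and 111 CPM with IFN-γ, against 106, 99.3 and 102 CPM untreated. It was at 0.19 ± 0.06 (adjusted p = 0.0413).

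Neither call held under upper quartile scaling or total counts. The all-gene median moved by -0.15 on the log2 scale under upper quartile scaling and by -0.17 under total counts. Cs was then at 0.09 and 0.07 and Dlst at 0.04 and 0.02, with neither called. Without IFN-γ replicate 1 Cs was at 0.18 and without IFN-γ replicate 2 at 0.26, and neither value was called. Dlst lost its call when any single IFN-γ library was left out (0.13 to 0.22), and without untreated replicate 1 (0.21) or 3 (0.17). Without untreated replicate 2, 3 of the 14 enzymes were called higher, Sdhd being added. With total counts 3 of the 14 enzymes were called lower and none higher, and 12 of 14 log2 fold changes were below 0, where 4 of 14 were below 0 with TMM. Over all genes, 12.8% were higher and 34.9% lower with total counts. Relative to the median of all genes, the median of the 14 was 0.05 with TMM, but 0.10 without untreated replicate 2, 0.01 without untreated replicate 1 and 0.02 without untreated replicate 3.

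The 4 succinate dehydrogenase genes, whose products link the cycle to the respiratory chain, were not called and lay between -0.04 and 0.07 on the log2 scale. Per length, Sdhc was the most abundant of all 39 genes, at 311 ± 3.47 TPM with IFN-γ and 333 ± 16.5 TPM untreated. Sdhb was at 241 ± 8.51 and 269 ± 12.1 TPM, Sdhd at 214 ± 1.91 and 222 ± 3.13 TPM, and Sdha, the flavoprotein, at 163 ± 3.11 and 169 ± 15.6 TPM. By mean TPM the subunits stood in the order Sdhc, Sdhb, Sdhd and Sdha in both groups. None of the 4 passed an unadjusted p of 0.05 or was called by DESeq2 or limma-voom; Sdhd was called without untreated replicate 2. The succinyl-CoA ligase genes Sucla2 and Suclg1 were at 0.09 ± 0.07 and 0.01 ± 0.09 on the log2 scale. Fh1, fumarase, was at 0.07 ± 0.07, and Ogdh, the first enzyme of the 2-oxoglutarate dehydrogenase complex, at 0.17 ± 0.09, which was called only with the trend on exon length removed.

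**Figure D4:**
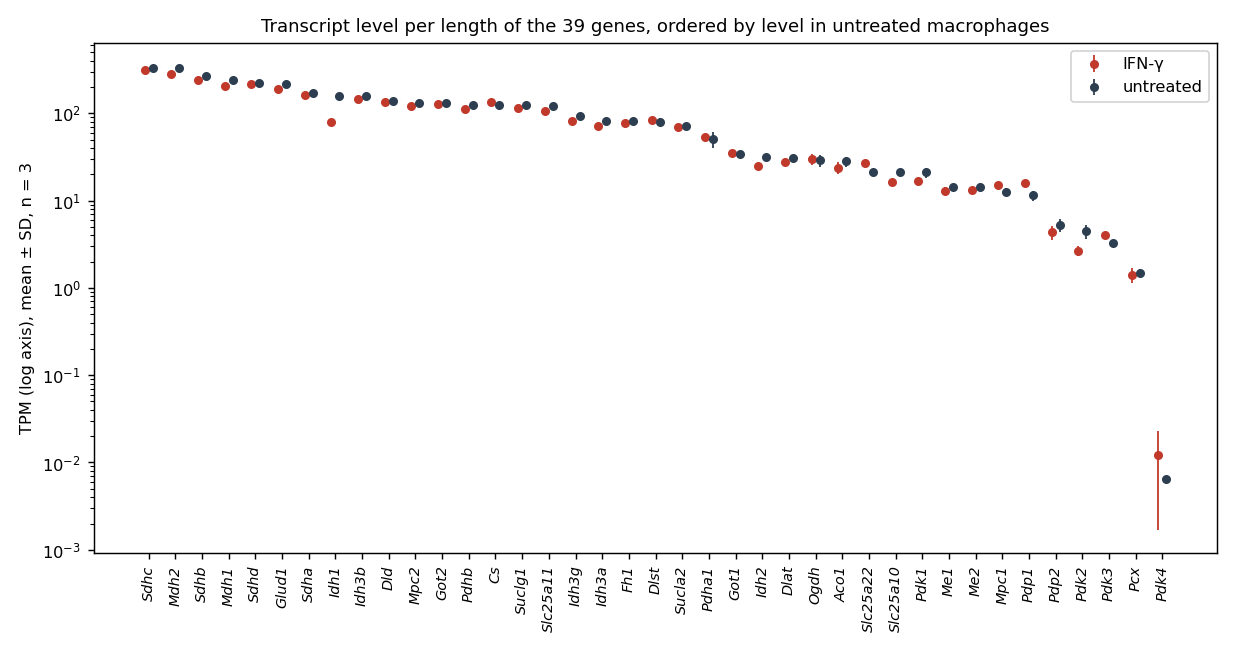
TPM (y axis, log scale; mean ± SD, n = 3 libraries) of the 39 genes in IFN-γ (red) and untreated (dark) macrophages, ordered by level in untreated macrophages; for Pdk4 in untreated macrophages the SD exceeded the mean and no bar is drawn. Sdhc, Mdh2 and Sdhb lead in both groups, Pdk4 is last, and Idh1 shows the widest gap among the abundant genes.

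Of the 3 other carriers of the inner mitochondrial membrane, 1 was higher, 1 was lower and 1 was not called. Over all genes tested, 19.6% were higher and 16.8% lower. Slc25a22, a glutamate carrier that brings glutamate into the matrix, had 47.3, 46.7 and 45.9 CPM with IFN-γ, against 34.5, 33.5 and 33.6 CPM untreated, with a wide gap between the groups. It rose by 0.46 ± 0.05 on the log2 scale (adjusted p = 0.000279, edgeR), and kept its call in all 16 alternatives. Its upstream window, shown above, held the interferon-stimulated response element match, as did windows of 3.46% of all genes with windows. Whether the match has a part in the rise was not tested. Slc25a10, the dicarboxylate carrier, which moves malate and succinate, had 32.8, 32.0 and 32.7 CPM with IFN-γ, against 39.4, 40.0 and 38.7 CPM untreated. It fell by 0.28 ± 0.05 (adjusted p = 0.00482), and was called in all 16 alternatives. Slc25a11, the 2-oxoglutarate-malate carrier, was at -0.09 ± 0.08 and not called, with overlapping groups, but was called lower with total counts, and 11.4% of its exon bases overlap Rnf167 on the other strand.

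In glutamate handling, Glud1, the mitochondrial glutamate dehydrogenase, ranked the 6th of the 39 genes by TPM in both groups and was not called. It had 293, 305 and 304 CPM with IFN-γ, against 314, 314 and 313 CPM untreated, a log2 fold change of -0.06 ± 0.05 although the groups did not overlap. It was called lower with upper quartile scaling (-0.21) and with total counts (-0.23). Got2 had 152, 157 and 149.8 CPM with IFN-γ, against 141, 141 and 144 CPM untreated, and was at 0.11 ± 0.05 at an adjusted p of 0.144 (edgeR). It was called only when each library's trend on exon length was removed.

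Other genes of the same routes were taken from a list of 35, of which 32 were tested. Of these, 2 were higher and 9 were lower, or 34.4% called, against 36.4% of all genes tested. Their median log2 fold change was -0.211, where that of all genes tested was -0.014. With upper quartile scaling 16 were lower, where 31.6% of all genes were, and with total counts 21, where 34.9% of all genes were. Glul, glutamine synthetase, which makes glutamine from glutamate, had 166, 161 and 165 CPM with IFN-γ, against 288, 295 and 293 CPM untreated, and fell by 0.83 ± 0.05 on the log2 scale (adjusted p = 5.71e-06, edgeR). Its groups did not overlap. The glutamine transporter genes Slc1a5 and Slc38a2, chosen after their values were seen, fell by 0.41 ± 0.05 and 0.35 ± 0.08 on the log2 scale (adjusted p = 0.00043 and 0.00918). The 21 genes not called lay between -0.37 and 0.25.

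Slc25a12, an aspartate-glutamate carrier, rose by 0.47 ± 0.07 on the log2 scale, while Slc25a13, its paralogue, fell by 0.30 ± 0.06 (adjusted p = 0.00139 and 0.00655 in edgeR's test). Slc25a13 was chosen after its value was seen. Slc25a12 made up 47.6%, 49.2% and 47.1% of the TPM of both carriers with IFN-γ, against 36.1%, 33.0% and 35.9% untreated. Lipt2, which takes part in attaching lipoic acid to the 2-oxoacid dehydrogenases, fell by 0.92 ± 0.14, with 74, 93 and 86 counts with IFN-γ, against 154, 169 and 151 counts untreated. Pck2, the mitochondrial phosphoenolpyruvate carboxykinase, fell by 0.60 ± 0.08. Acss1, the mitochondrial acetyl-CoA synthetase, fell by 0.54 ± 0.07, and Sdhaf1, an assembly factor of succinate dehydrogenase, by 0.46 ± 0.12. The subunits that Sdhaf1 serves were not called.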

How the data were processed

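HISAT2 and mm10 are named in the submitters' processing notes; how reads were counted, and whether by strand, is not stated in the sources used. A stranded mRNA kit was used, per the labels. The gene counts deposited by the authors were tested as they stand. The TPM deposited by the authors served for levels between genes, and the FPKM deposited by the authors were only checked against the counts. Gene positions in the tables differed from GRCm38.p6 (1.7% of 35271 shared symbols had the same start and end), so none are printed.

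The test was edgeR 4.0.16 in R 4.3.3 (filterByExpr with minimum count 10 and total 15, TMM, glmQLFit and glmQLFTest, two-sided, Benjamini-Hochberg adjustment over 12968 genes, threshold 0.05). A floor of 3 counts, which covers counting error only, equals 0.089 to 0.101 CPM. SEs were obtained from the log2 fold change and F. Pairs were tested with scipy 1.17.1. Values per library are given for called genes and isoenzyme pairs; outside the set, up to 8 called genes of largest change are named. Upstream windows were to be those of at most 3 called genes of largest change; Pdp1 was not matched, the Pdk2 windows held no motif and are not shown, and windows with a match were added after their values were seen. Exon overlaps use the positions in the deposited tables. Shared 50-base stretches were counted on GENCODE M21 transcripts. No replicate pair was a duplicate library (chi-square over degrees of freedom, 2.04 to 80.2). The closest were IFN-γ replicates 2 and 3, at 2.04, and IFN-γ replicate 1 was at 13.3 and 17 against them. Untreated pairs were at 27.2 to 80.2, so the groups differed in spread. The fit was tested on simulated data. The members and lists were chosen with earlier results of these data known. Alternatives were other scalings, filters and tests (DESeq2 1.42.0, limma 3.58.1), the replicate block, removal of length trends, a threshold of 0.01, and each library left out. Some genes of these lists, and a pair among the 5, are not reported here.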

Additional observations from a re-analysis of the deposited data

How the results depend on the processing

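Of 606 comparisons of a gene's log2 fold change with its main value, 558 kept their side of the threshold, 31 lost a call, 17 gained one, and 0 called values changed sign. Of the 12 called genes, Idh1, Pdk3, Pdp1, Slc25a10 and Slc25a22 were called under all 16 alternatives, and Pdk2 under the 15 that tested it, since the filter of 5 CPM in 3 samples removed it. Members called higher numbered 7, but 4 with upper quartile scaling, 3 with total counts and 4 at a threshold of 0.01; leaving out 1 library gave 4 to 8. Members called lower numbered 5, but 9 with upper quartile scaling, 14 with total counts and 3 at a threshold of 0.01. Leaving out 1 library gave 3 to 5 lower. How many of all genes pass 0.01 was not counted, so the drop at that threshold is not a result about the members. Genes of the same routes outside the set numbered 2 higher, or 4 with length trends removed, and 9 lower, or 16 with upper quartile scaling and 21 with total counts; these settings were chosen for them with the data in view. Leaving out 1 library at a time, the log2 difference in ratio ranged from -0.64 to -0.57 for Idh1 over Idh2, -0.02 to 0.01 for Mdh1 over Mdh2, 0.04 to 0.11 for Got1 over Got2 and -0.16 to 0.06 for Me1 over Me2; for Mdh and Me the sign turned without IFN-γ replicate 1, where the cause was not tested. Same-numbered replicates correlated at 0.306, 0.144 and -0.0703, and different-numbered replicates at -0.34 to 0.241. The highest value was a same-numbered one, but the ranges overlapped, and the numbers were not taken to pair the samples. With the replicate block 6 members were higher and 5 lower, Got1 being lost, where 2723 and 2327 of all 12968 genes were. Of the genes of the same routes outside the set, 10 were then lower. The paired exact permutation p for Idh1 over Idh2 was 0.25, the smallest that 3 pairs allow. Depth limits Pdk4 and leaves Pcx and Pdk2 at 83 to 195 counts a library.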
